A study of Homo sapiens with 4 samples.

Results

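In A549 cells, 11 genes lost most of their transcript signal when doxycycline raised GATA4. They were selected on measured values: a gene had to be at or above 2 FPKM in both libraries without doxycycline and under 1 FPKM in both libraries with it. FPKM are sequenced fragments scaled for transcript length and library size, and any further scaling between libraries is not given here. Of 23143 gene symbols in the table, 28 met both limits. Left out by name were 15 small RNA genes and 2 other genes, so 11 genes remained. They are C4BPA, C12orf39, IGFBP1, TNS4, IFITM1, TRIM31, C10orf91, PRTN3, FIBCD1, LOC441177 and PRRX2. No member was at 0 in any library, so "switched off" here means under 1 FPKM and not absent.

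A549 is a human lung adenocarcinoma line with an alveolar epithelial origin. Polyadenylated RNA was sequenced in 4 libraries. The 2 DOX libraries came from doxycycline-treated cells, labelled as overexpressing GATA4. The 2 noDOX libraries came from cells with GATA4 at its normal level, for which the design text names a vehicle. The labels give no dose, no exposure time, no vector, no clone and no word on whether replicates came from separate cultures. The limma p-values therefore reflect only how far these libraries lie apart, and that distance may be technical. Cells given doxycycline without inducible GATA4 were not analysed here, so the agent and the factor cannot be told apart.

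GATA4 itself was at 74.98 and 47.95 FPKM in the DOX libraries, against 12.2 and 14.5 FPKM in the noDOX libraries. It averaged 61.5 ± 19.1 FPKM in DOX and 13.3 ± 1.66 FPKM in noDOX (SD, n = 2 each). The groups did not overlap, with DOX the higher, as the labels state. Absolute depth is unknown, and the relative depths given next hold only if values were not further scaled between libraries. The spacing of low values in the table gave DOX libraries 1 and 2 and noDOX library 1 a relative depth of 95.7, 63.0 and 86.8% of noDOX library 2, from the 188 to 265 low genes that shared 1 ratio per library. Small RNA genes held 41.8 and 39.03% of the FPKM sum in the DOX libraries, against 34.8 and 41.9% in the noDOX libraries. Of 10 housekeeping genes, 10 were at or above 1 FPKM in every library. Of 10 lung epithelial markers, 7 were at or above 1 FPKM in every library, whereas the alveolar type II marker SFTPC was under 0.1 FPKM or listed at 0. Endothelial markers summed to 0.192 and 0.116 FPKM in DOX, against 0.117 and 0.119 FPKM in noDOX. Fibroblast markers summed to 2.30 and 3.16 FPKM in DOX, against 4.30 and 9.92 FPKM in noDOX, and 4 of 8 were under 0.1 FPKM throughout. Blood markers summed to 6.04 and 17.6 FPKM in DOX, against 9.25 and 10.01 FPKM in noDOX, and 3 of 7 were under 0.1 FPKM throughout, among them the pan-leukocyte marker PTPRC. CD14 was at 1.94 and 15.9 FPKM in DOX, against 8.01 and 6.01 FPKM in noDOX, and LYZ at 3.58 and 1.11 FPKM in DOX, against 1.11 and 3.71 FPKM in noDOX. Neural markers, 5 of 5 at or above 1 FPKM in every library, summed to 97.8 and 147 FPKM in DOX, against 156 and 188 FPKM in noDOX. The part of these levels in the results below was not tested. In bulk RNA, fewer cells that make a transcript and less transcript per cell cannot be told apart.

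GATA4 is a zinc finger transcription factor of heart, endoderm and gonad that binds DNA with a GATA core and can raise or lower the transcription of its targets. In a doxycycline-inducible line the drug lets an engineered activator drive the added gene. The 11 members have no single shared role: they include a secreted carrier and a peptide hormone, proteins of complement, interferon response and innate defence, an adhesion protein, a homeobox factor and a pair of long noncoding RNAs. By the RefSeq annotation, 9 are protein-coding and 2 are long noncoding, and they lie on 9 chromosomes.

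Promoter windows were looked up for all 11 members because the window in front of a gene is the sequence that these genes could share outside the expression values. The RefSeq promoter table used here, on build GRCh38.p14, gave windows of 9 members, each with 250 bases before and 50 after the annotated start. Windows of IGFBP1 and TNS4 were not analysed here. The authors' values were made on hg19, and no coordinate was converted. Shown first are the 5 members with the highest noDOX means among those with a window, then TRIM31, which was chosen after its values were seen because it holds 2 of the words searched. The windows lie at chr1:207103983-207104282 for C4BPA, chr11:313790-314089 for IFITM1, chr19:840749-841048 for PRTN3, chr10:132444939-132445238 for C10orf91 and chr12:21527702-21528001 for C12orf39, all on the plus strand, and at chr6:30113041-30113340 on the minus strand for TRIM31. Each is read 5′ to 3′ along its gene, with CpG dinucleotides in capitals.
C4BPA: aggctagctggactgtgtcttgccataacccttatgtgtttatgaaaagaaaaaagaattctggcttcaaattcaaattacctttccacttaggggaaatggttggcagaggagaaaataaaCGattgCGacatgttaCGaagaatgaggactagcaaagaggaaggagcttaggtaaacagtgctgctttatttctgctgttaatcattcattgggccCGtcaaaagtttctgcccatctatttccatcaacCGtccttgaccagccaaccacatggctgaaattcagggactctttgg
IFITM1: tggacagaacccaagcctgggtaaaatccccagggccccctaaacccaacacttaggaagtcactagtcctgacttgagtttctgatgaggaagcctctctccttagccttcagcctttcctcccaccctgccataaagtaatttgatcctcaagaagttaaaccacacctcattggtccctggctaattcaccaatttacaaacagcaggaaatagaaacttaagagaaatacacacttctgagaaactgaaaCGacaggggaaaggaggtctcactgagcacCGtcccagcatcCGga
PRTN3: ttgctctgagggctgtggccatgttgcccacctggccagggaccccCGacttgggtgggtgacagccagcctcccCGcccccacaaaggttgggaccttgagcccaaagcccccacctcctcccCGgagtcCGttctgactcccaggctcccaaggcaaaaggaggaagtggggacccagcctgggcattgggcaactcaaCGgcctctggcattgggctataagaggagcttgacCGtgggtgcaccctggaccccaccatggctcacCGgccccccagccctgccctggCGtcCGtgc
C10orf91: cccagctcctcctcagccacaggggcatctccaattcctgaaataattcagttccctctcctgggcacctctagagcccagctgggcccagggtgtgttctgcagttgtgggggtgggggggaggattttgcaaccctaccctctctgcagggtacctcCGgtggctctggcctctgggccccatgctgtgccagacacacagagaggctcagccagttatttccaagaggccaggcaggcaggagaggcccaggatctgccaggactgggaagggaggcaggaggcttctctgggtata
C12orf39: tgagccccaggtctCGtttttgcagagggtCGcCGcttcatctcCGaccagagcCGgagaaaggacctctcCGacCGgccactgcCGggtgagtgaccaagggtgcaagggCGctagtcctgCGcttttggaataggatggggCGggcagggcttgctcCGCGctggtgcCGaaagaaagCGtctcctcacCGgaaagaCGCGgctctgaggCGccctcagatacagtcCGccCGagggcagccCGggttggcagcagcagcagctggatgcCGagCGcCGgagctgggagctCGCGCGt
TRIM31: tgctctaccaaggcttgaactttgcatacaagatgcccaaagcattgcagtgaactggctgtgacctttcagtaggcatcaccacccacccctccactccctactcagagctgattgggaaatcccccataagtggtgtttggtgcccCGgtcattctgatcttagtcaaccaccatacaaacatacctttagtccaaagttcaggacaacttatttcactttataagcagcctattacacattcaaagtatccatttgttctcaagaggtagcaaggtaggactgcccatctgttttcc

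Most of these windows carry few capitals. C4BPA has 5 CpG, IFITM1 has 3, PRTN3 has 9, and TRIM31 and C10orf91 have 1 each, whereas C12orf39 has 28. Among the members not printed, LOC441177 has 10 CpG, PRRX2 has 24 and FIBCD1 has 36. As background, dense CpG marks the promoters of most broadly expressed human genes, and CpG-poor promoters are commoner among genes of restricted expression. Set against the number that each window's own C and G content predicts, the members formed 2 sets. C10orf91, TRIM31, IFITM1, PRTN3 and C4BPA had an observed-over-expected ratio of 0.0359 to 0.373, and PRRX2, LOC441177, FIBCD1 and C12orf39 one of 0.734 to 0.855. The median of the 9 windows was 0.373, against 0.849 over the 9737 promoters of tested genes. It was 0.821 over the 1595 of those genes, members apart, whose noDOX level was within the members' range. A ratio at or below 0.373 was found in 7.85% of tested genes and in 10.7% of the genes of like level. GC content differed less, with a median of 61.0% in the members and 65.7% in tested genes. These are descriptions of 9 windows, with no test.

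Short words of known factors were then searched on both strands of the same windows, the share of tested genes holding the word being given each time. The GATA words were AGATAA with its variant AGATAG, and TGATAA with its variant TGATAG. Any of them was in 0 of 9 member windows and in 13.9% of tested genes. The AP-1 word TGANTCA was in 0 of 9 windows and in 4.16% of tested genes. The hypoxia word ACGTG was in 1 window, that of LOC441177, and in 27.1% of tested genes. The word CAGAC, which SMAD proteins bind, was in 2 windows, those of C10orf91 and FIBCD1, and in 42.3% of tested genes. The GC box GGGCGG was in 4 windows and in 71.6% of tested genes. TRIM31 was the only member with the TATA word TATAAA, which begins at position -30 from the annotated start, reads TTTATA on the gene's strand and was in 5.26% of tested genes. It was also the only one with the NF-kB word, which begins at position -133, reads GGAAATCCCC on the gene's strand and was in 2.13% of tested genes. CAGAC overlaps no other word searched in these windows. The absence of a word says only that its letters are not in these 300 bases.

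Summed over the 11 genes, the signal was 4.997 and 6.98 FPKM in the DOX libraries, against 31.5 and 44.0 FPKM in the noDOX libraries. The median gene stood at 0.451 and 0.619 FPKM in DOX, against 2.67 and 4.07 FPKM in noDOX. Group means were 2.45-fold to 15.9-fold lower in DOX, and the log2(FPKM + 1) differences ran from -1.94 to -0.74 with a median of -1.53. In noDOX cells the members' means were low, at 2.10 to 4.58 FPKM, with the lower end set by the limit of 2 FPKM. Small RNA apart, 11865 and 12332 genes were at or above 1 FPKM in noDOX libraries 1 and 2. The members' means lay above 49.9 to 59.5% of all genes other than small RNA, those under 1 FPKM included. The 11 members were 0.107% of the 10325 such genes at or above 2 FPKM in both noDOX libraries. With the limits turned round, 22 of 10289 genes at or above 2 FPKM in both DOX libraries were under 1 FPKM in both noDOX libraries, which is 0.214%. Both DOX libraries lie below both noDOX libraries in 11 of 11 members because the limits require it. Of the 12504 genes averaging 1 FPKM or more over the libraries, which were tested with limma, 17.3% had that order and 14.7% the opposite one. All 11 members are among these tested genes, but the limits used the same 4 values, so no p-value is given for them.

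**Figure D1:**
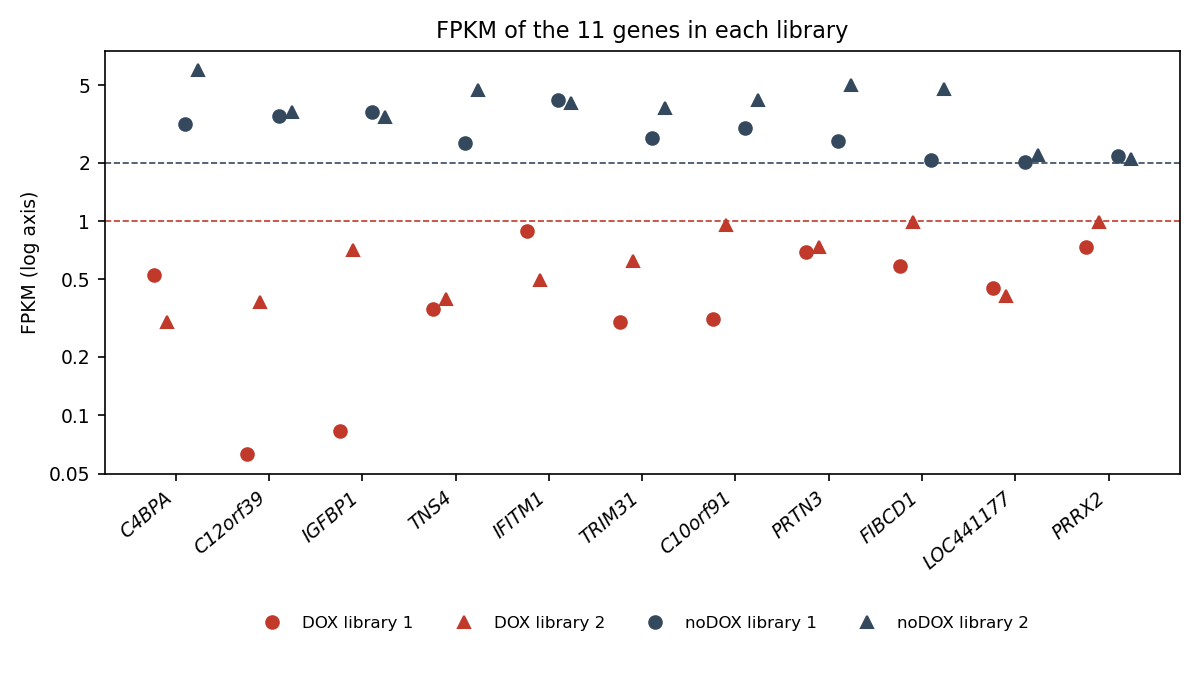
FPKM on a log axis (y) of each of the 11 members (x) in DOX libraries 1 and 2 (red) and noDOX libraries 1 and 2 (dark blue). Dashed lines mark the limits of 1 and 2 FPKM, and C12orf39 and IGFBP1 show the lowest values and the widest gap between the DOX libraries.

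Secreted regulators come first among the members. C12orf39, which current annotation names SPX, encodes the peptide hormone spexin. It was at 0.0633 and 0.385 FPKM in DOX, against 3.49 and 3.63 FPKM in noDOX. The noDOX libraries nearly coincided and the DOX libraries did not, and the mean was 15.9-fold lower in DOX, the largest ratio of the set. IGFBP1 is a secreted protein that binds insulin-like growth factors and is made mainly by liver and decidua. It was at 0.0829 and 0.705 FPKM in DOX, against 3.66 and 3.44 FPKM in noDOX. Its mean was 9.01-fold lower in DOX, with the DOX libraries 8.51-fold apart, the widest spread within a group among members. Exons of C12orf39 overlap those of GYS2, the liver glycogen synthase gene, on the other strand. GYS2 was at 0.00818 and 0.0249 FPKM in DOX, against 0.162 and 0.0940 FPKM in noDOX. As the strand setting is not given, reads of the pair cannot be told apart, although GYS2 was under 0.2 FPKM throughout.

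Members of immune defence and complement formed another group. C4BPA encodes the alpha chain of C4b-binding protein, a plasma inhibitor of the classical complement pathway. It was at 0.529 and 0.304 FPKM in DOX, against 3.17 and 5.99 FPKM in noDOX. C4BPA had the highest noDOX mean of the set, 4.58 ± 1.99 FPKM, against a DOX mean of 0.416 ± 0.159 FPKM, and its log2(FPKM + 1) difference of -1.94 was the most negative. On that scale the added 1 understates the change of low genes. IFITM1, an interferon-induced membrane protein that restricts the entry of enveloped viruses, was at 0.888 and 0.497 FPKM in DOX, against 4.18 and 4.07 FPKM in noDOX. Its mean was 5.95-fold lower in DOX, 0.693 ± 0.276 FPKM against 4.12 ± 0.0744 FPKM in noDOX. Its exons overlap those of its relative IFITM2 on the same strand, and the close sequence of the pair can divide reads. IFITM2 was at 57.7 and 126 FPKM in DOX, against 239 and 186 FPKM in noDOX. These levels are far above those of IFITM1, so the level of IFITM1 and its difference between groups are uncertain to that extent.

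TRIM31 encodes a RING-type ubiquitin ligase of the tripartite motif family that acts in antiviral signalling and in the gut. It was at 0.302 and 0.619 FPKM in DOX, against 2.67 and 3.82 FPKM in noDOX, a mean 7.04-fold lower in DOX. It shares exon bases with an antisense gene on the other strand. PRTN3 encodes proteinase 3, a serine protease of neutrophil granules. It was at 0.692 and 0.731 FPKM in DOX, against 2.59 and 5.04 FPKM in noDOX, so the DOX libraries were close and noDOX library 2 stood well above noDOX library 1. Its mean was 5.36-fold lower in DOX. FIBCD1, a membrane receptor for acetylated structures such as chitin, was at 0.584 and 0.987 FPKM in DOX, against 2.052 and 4.76 FPKM in noDOX, a mean 4.34-fold lower in DOX. Its noDOX libraries were 2.32-fold apart, the widest noDOX spread of the set. Without noDOX library 2 its log2 difference was -0.78, against -1.24 with all 4 libraries.

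Adhesion and transcription were each represented by 1 gene. TNS4, also called cten, is a tensin of focal adhesions that lacks the actin-binding region of the longer tensins. It was at 0.353 and 0.395 FPKM in DOX, against 2.51 and 4.74 FPKM in noDOX, and was among the 3 members under 0.5 FPKM in both DOX libraries, with C12orf39 and LOC441177. Its mean was 9.68-fold lower in DOX, with close DOX libraries and noDOX libraries 1.89-fold apart. PRRX2, a paired-related homeobox factor of embryonic mesenchyme, was at 0.738 and 0.989 FPKM in DOX, against 2.15 and 2.08 FPKM in noDOX. Its ratio, 2.45-fold lower in DOX, was the smallest of the 11.

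The long noncoding members were C10orf91, now named LINC02870, and LOC441177, now named LINC00602. C10orf91 was at 0.314 and 0.955 FPKM in DOX, against 3.02 and 4.21 FPKM in noDOX, a mean 5.70-fold lower in DOX. LOC441177 was at 0.451 and 0.411 FPKM in DOX, against 2.002 and 2.19 FPKM in noDOX, a mean 4.87-fold lower in DOX. Libraries of the same group were close for LOC441177, and DOX library 2 was 3.04-fold above DOX library 1 for C10orf91. LOC441177 overlaps exons of the phosphodiesterase gene PDE10A on the other strand. PDE10A was at 1.63 and 1.199 FPKM in DOX, against 1.48 and 1.46 FPKM in noDOX, and its groups overlapped. As above, reads of the pair cannot be told apart.

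The members did not vary alike between replicates. DOX library 2 was above DOX library 1 in 8 of 11 members, and noDOX library 2 above noDOX library 1 in 8 of 11. Opposite to most, IFITM1, C4BPA and LOC441177 were lower in DOX library 2, at 0.560, 0.574 and 0.912 of the DOX library 1 value. Outside small RNA genes the FPKM sum was 568294 and 755157 in DOX libraries 1 and 2, against 900263 and 575373 in noDOX libraries 1 and 2, and its part in these orders was not tested. Low FPKM rest on few fragments, and DOX library 2 was the shallowest by the relative depths above. After division by what 1 fragment was worth in each library, the values of 9 members stood in ratios of whole numbers within 0.05, with multiples up to 40 tried. For C12orf39 the smallest such numbers were 1 and 4 in DOX, against 50 and 60 in noDOX. For IGFBP1 they were 5 and 28 in DOX, against 200 and 217 in noDOX. For IFITM1 they were 19 and 7 in DOX, against 81 and 91 in noDOX. Any common multiple gives the same ratios, so these are not established counts. The ratios for C4BPA were 45 and 17 in DOX, against 245 and 533 in noDOX. Those for TRIM31 were 23 and 31 in DOX, against 184 and 304 in noDOX. Between the DOX libraries, library 2 had the lower number in IFITM1, C4BPA, PRTN3, LOC441177 and PRRX2. It had the higher one in C12orf39, IGFBP1, TRIM31 and C10orf91. For PRTN3 the numbers were 23 and 16 in DOX and for PRRX2 17 and 15, although by FPKM both were higher in DOX library 2. No such numbers were found for TNS4 and FIBCD1.

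**Figure D2:**
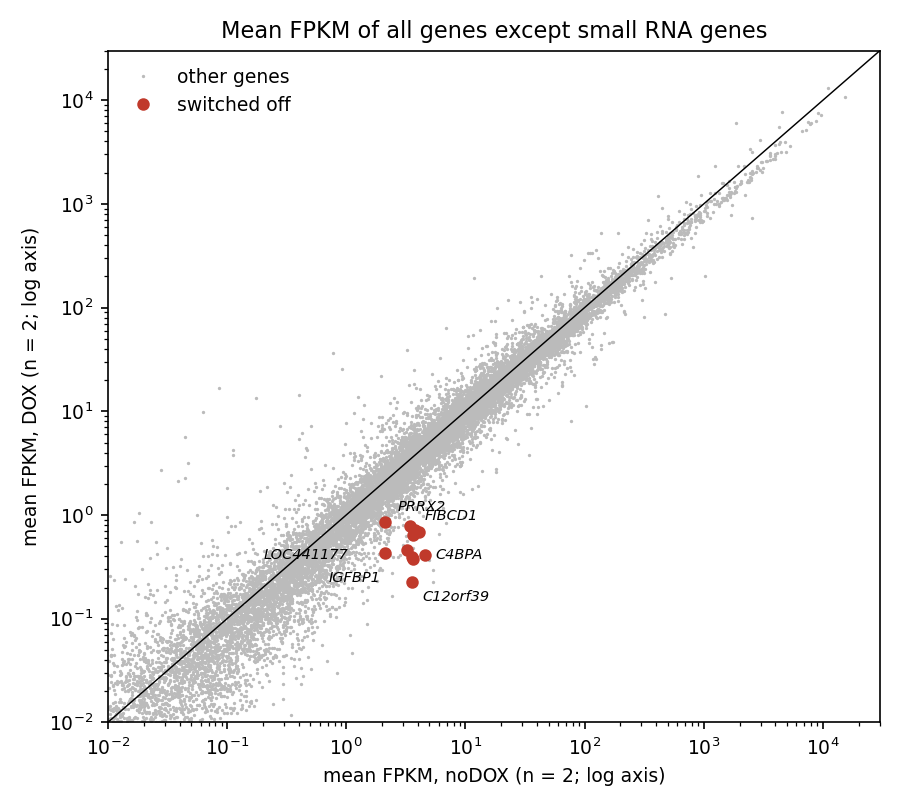
Mean FPKM in DOX (y, n = 2, log axis) against mean FPKM in noDOX (x, n = 2, log axis) of all genes other than small RNA (grey), with the 11 members in red and the line of equal means. The members lie below the line at noDOX means of 2.10 to 4.58 FPKM, with C12orf39 farthest below it and PRRX2 nearest to it.

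The limits cut through a continuous range. Just inside were 4 members with a noDOX value under 2.2 FPKM or a DOX value of 0.9 FPKM or more: C10orf91, FIBCD1, LOC441177 and PRRX2. Just outside were 11 genes that missed a limit by 0.2 FPKM or less in noDOX or 0.1 FPKM or less in DOX. Among them are the liver secretory gene AHSG, CACNA1D, the urea cycle enzyme gene CPS1, FBXO15, HEY1, the adhesion receptor ICAM1, the mucin MUC5B, RASD1, RASSF5 and SERPINB8. RASD1 was at 0.327 and 0.422 FPKM in DOX, against 1.92 and 5.36 FPKM in noDOX, a gap wider than that of PRRX2. ICAM1 was at 0.355 and 0.239 FPKM in DOX, against 1.82 and 1.92 FPKM in noDOX. The set is a slice by level, and 9 of the 11 genes just outside it had a larger ratio of group means than PRRX2 inside it. With a library left out of the rule the 11 genes became 17 without DOX library 1, 44 without DOX library 2, 81 without noDOX library 1 and 24 without noDOX library 2, since fewer conditions then apply. With the libraries scaled to the same FPKM sum, small RNA apart, 7 genes met the limits, of which 6 were members.

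Neighbours, relatives and pathway partners of the members were not used by the limits. The limma comparison of all genes gave 8 genes lower in DOX and 3 higher at an adjusted p under 0.05, or 0.064% and 0.024% of 12504. Without small RNA genes, which the members also leave out, it gave 0 lower and 1 higher of 12112. The number depended on which libraries and genes entered. It was 51 to 61 with any 1 library left out, where the lone library of a group is assumed to vary like the other group, and 1 with small RNA genes left out. The median log2 difference over tested genes was -0.04. At this low background of calls, those genes are described by their values, counts and adjusted p.

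Nearest measured genes on each side of the members numbered 22, of which 14 were tested. By limma 0 of the 14 passed, and 4 had an unadjusted p under 0.05, against 6.34% of all tested genes. Their median log2 difference was -0.21, with 10 lower and 4 higher means in DOX. Without noDOX library 1 that median was -0.34. The DOX libraries were both below the noDOX libraries in 8 of 14, against 17.3% of all tested genes, and above them in 2 of 14, against 14.7%. The lowest neighbour was IGFBP3, the main circulating carrier of insulin-like growth factors, which lies next to IGFBP1 on chromosome 7. IGFBP3 was at 5.77 and 16.5 FPKM in DOX, against 70.6 and 135 FPKM in noDOX. The log2 difference was -3.18 ± 0.586 (SE, n = 2 each), and the adjusted p of 0.420 from limma missed the threshold. The DOX libraries of IGFBP3 were both below its noDOX libraries.

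Next to TNS4 lie IGFBP4, another carrier of insulin-like growth factors, and CCR7, a chemokine receptor of lymphocytes. IGFBP4 was at 164 and 225 FPKM in DOX, against 409 and 652 FPKM in noDOX, with a log2 difference of -1.42 and a limma adjusted p of 0.640. CCR7 was at 0.0484 and 0.202 FPKM in DOX, against 0.747 and 0.903 FPKM in noDOX, too low to be tested. Both neighbours of TNS4 thus had DOX libraries below noDOX libraries. C6orf176, now named LINC00473 and known as a noncoding RNA induced by cyclic AMP, lies next to LOC441177. It was at 1.05 and 1.65 FPKM in DOX, against 7.02 and 5.12 FPKM in noDOX. Its log2 difference was -1.59 ± 0.252 (SE, n = 2 each), with an adjusted p of 0.357 by limma.

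Neighbours of PRTN3 are the other neutrophil granule genes AZU1 and ELANE, which encode azurocidin and neutrophil elastase. ELANE was at 0.300 and 0.101 FPKM in DOX, against 0.808 and 2.26 FPKM in noDOX, too low to be tested. AZU1 was at 1.56 and 0.257 FPKM in DOX, against 0.523 and 5.57 FPKM in noDOX, and its groups overlapped. PRTN3, ELANE and AZU1 were each highest in noDOX library 2. Around C4BPA the picture was different. Its partner chain C4BPB was at 0 and 0.293 FPKM in DOX, against 0.318 and 0.0615 FPKM in noDOX. CD55, a membrane regulator of complement, was at 70.5 and 37.3 FPKM in DOX, against 27.1 and 57.2 FPKM in noDOX. Groups overlapped for both. Close to PRRX2, the prostaglandin E synthase gene PTGES was at 17.7 and 16.6 FPKM in DOX, against 15.5 and 15.95 FPKM in noDOX. Close to C12orf39, GOLT1B was at 11.3 and 11.5 FPKM in DOX, against 13.2 and 13.2 FPKM in noDOX. These 2 neighbours differed from their own noDOX level by far less than the members beside them. Both neighbours of IFITM1 had lower means in DOX, with IFITM2 at -1.30 and IFITM3 at -1.37 on the log2(FPKM + 1) scale. Reads of IFITM1 and IFITM2 can be divided between them, as stated above. The other tested neighbours not yet described, RNF39, PWWP2B, INPP5A, ASB6 and SEPT7P2, differed by -0.22 to 0.38 on that scale.

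Relatives by symbol were counted for IGFBP1, TNS4, IFITM1 and PRRX2. The 73 TRIM relatives of TRIM31 were over a limit of 60 for a symbol stem and were left out. Of 14 such genes, 10 were tested and 0 passed by limma, with 4 at an unadjusted p under 0.05, against 6.34% of all tested genes. All 10 tested relatives had a lower mean in DOX, and in 8 of 10 the DOX libraries were both below the noDOX libraries, against 17.3% of all tested genes. Their median log2 difference was -1.12, against -0.04 over all tested genes, and -1.10 with median-ratio scaling. Genes counted as neighbours above, IGFBP3, IGFBP4, IFITM2 and IFITM3, are also among these relatives, so the counts share them.

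The insulin-like growth factor binding proteins held 5 of the tested relatives, with a median of -1.35. IGFBP7, a secreted protein of the same superfamily, was at 2.06 and 3.94 FPKM in DOX, against 7.85 and 10.2 FPKM in noDOX, with a log2 difference of -1.35 and a limma adjusted p of 0.520. IGFBP2 was at 30.8 and 38.4 FPKM in DOX, against 45.8 and 47.8 FPKM in noDOX. IGFBP6 was at 32.8 and 77.0 FPKM in DOX, against 89.0 and 61.7 FPKM in noDOX, and alone of the 5 its groups overlapped. IGFBP5 was too low to be tested. In the IFITM family, IFITM2 was at 57.7 and 126 FPKM in DOX, against 239 and 186 FPKM in noDOX, with a log2 difference of -1.30 and a limma adjusted p of 0.768. IFITM3 was at 15.97 and 47.2 FPKM in DOX, against 92.5 and 57.2 FPKM in noDOX, with a log2 difference of -1.37 and a limma adjusted p of 0.863. DOX library 1 was the lowest for both, whereas IFITM1 was lower in DOX library 2. Among tensins, TNS1 was at 0.402 and 0.260 FPKM in DOX, against 0.750 and 2.70 FPKM in noDOX, and TNS3 at 37.3 and 31.4 FPKM in DOX, against 37.5 and 44.7 FPKM in noDOX. PRRX1, the close relative of PRRX2, was at or near 0 in all libraries.

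Pathway lists were set beside the members, and 2 of 21 lists held a member, C4BPA in complement and coagulation and IFITM1 in the interferon-stimulated genes. Over all lists 420 genes other than the members were tested and 0 passed by limma, with 119 at an unadjusted p under 0.05, against 6.34% of all tested genes. The lists were chosen with earlier results of these data known, so the counts within them are not independent of these values. Among the other complement and coagulation genes 24 were tested, with 17 lower and 7 higher means in DOX and a median log2 difference of -0.51. That median was -0.13 without DOX library 1 and -0.83 without DOX library 2. The groups did not overlap, DOX being the lower, in 11 of the 24, against 17.3% of all tested genes, and DOX was the higher without overlap in 4, against 14.7%. Lists that hold no member had median log2 differences from -1.20 (NF-kB and cytokine target genes) to 0.30 (xenobiotic metabolism), so a lower median is not particular to this list. CFD, a protease that starts the alternative pathway, was at 32.7 and 41.3 FPKM in DOX, against 77.9 and 107 FPKM in noDOX, with a limma adjusted p of 0.520. The central component C3 was at 4.96 and 2.56 FPKM in DOX, against 16.1 and 52.4 FPKM in noDOX, with a limma adjusted p of 0.520. C3 is also in the list of NF-kB and cytokine target genes. Coagulation factor X, F10, went the other way. It was at 19.5 and 9.57 FPKM in DOX, against 0.456 and 0.344 FPKM in noDOX, a log2 difference of 3.39 ± 0.363 (SE, n = 2 each) with a limma adjusted p of 0.173. The limma adjusted p of F10 was 0.0278 without DOX library 1, 0.0117 without DOX library 2, 0.226 without noDOX library 1 and 0.258 without noDOX library 2. Each of these fits leaves 1 library in a group, which is assumed to vary like the other group.

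Interferon-stimulated genes other than IFITM1 were divided. Of 20 tested, 10 had a lower and 10 a higher mean in DOX, and the median log2 difference was -0.04, the same as over all tested genes. That median was 0.07 without DOX library 2 and 0.02 without noDOX library 2, above 0 in both cases. Groups did not overlap in 6 lower genes (17.3% of all tested genes) and in 4 higher ones (14.7%). The guanylate-binding protein GBP2 was at 0.451 and 1.28 FPKM in DOX, against 3.46 and 3.58 FPKM in noDOX, and OAS1, a sensor of double-stranded RNA, at 7.43 and 9.67 FPKM in DOX, against 13.8 and 15.6 FPKM in noDOX. IFI6 was at 52.7 and 28.99 FPKM in DOX, against 13.2 and 14.4 FPKM in noDOX. Other genes without overlap included IFITM2, IFITM3 and IFIT1, lower in DOX, and OASL, IRF7 and USP18, higher in DOX. None of the genes named here passed the limma threshold, with adjusted p of 0.520 to 0.999.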

How the data were processed

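Polyadenylated RNA of A549 cells was purified, treated with DNase I and enriched on oligo(dT) beads, per the labels' protocols. The submitters' processing notes name Bowtie, Cuffdiff, Cufflinks 2.2.1, TopHat2 2.0.10 and the build hg19. The authors deposited FPKM for 23143 symbols, 1 column for each of 4 libraries. Annotation, strandedness and between-library scaling were not given in the sources used here.

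Members were taken by the FPKM limits, leaving out symbols that begin SCARNA, RN7S, RNY, RNU, SNOR or MIR and the genes AGTR1 and CA9. The members and the lists were chosen with earlier results of these data known. Genes averaging 1 FPKM or more were tested on log2(FPKM + 1), a pseudocount of 1, with limma 3.58.1 in R 4.3.3 (mean-variance trend, two-sided, Benjamini-Hochberg adjustment at 0.05, 2 libraries a group). The fit was tested on simulated data. Every member is named, and of neighbours, relatives and lists the up to 4 genes with the smallest p. Some genes that these rules name are not reported here. A few further neighbours and relatives were named after their values were seen. Symbols of 11 of 11 members were matched to RefSeq, and exon overlaps come from GENCODE release 29. The worth of 1 fragment was the most frequent ratio to noDOX library 2 among genes at or under 0.15 FPKM, within 0.2%.

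Alternatives changed the limits, the pseudocount, the filter, the scaling, the small RNA genes, the moderation and the libraries, and added a replicate block. Same-numbered libraries deviated in opposite directions (correlation -0.352 over 12504 genes, and -0.758 over 12112 genes without small RNA), and no label pairs them.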

Additional observations from a re-analysis of the deposited data

How the results depend on the processing

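The number of members depended on the limits: 33 genes at 1.5 FPKM or more in noDOX, 5 at 3 FPKM or more, 3 under 0.5 FPKM in DOX and 30 under 1.5 FPKM. Scaling all libraries to the same FPKM sum gave 7 genes, of which 6 were members. FIBCD1, IFITM1, LOC441177, PRRX2 and TNS4 were lost, and the cause was not tested. Median-ratio scaling gave 10 genes with 9 members. Division by the worth of 1 fragment, an alternative chosen after seeing the data, gave 16 genes with 8 members. With 1 library left out of the limits the number was 17 to 81, with all 11 members kept, since fewer conditions apply. The members' median log2 difference of -1.53 became -2.47 with a pseudocount of 0.1, which shrinks low values less, and -1.71 to -1.34 with 1 library left out. Over the planned settings for single members 57 values moved by less than the spread between replicates and 20 by more. All 20 came from a smaller pseudocount. Leaving out 1 library cannot move a single gene's value by more than that spread, so those settings are no check on the replicates.

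The 11 limma calls became 1 with no filter, 1 without small RNA genes and 51 to 61 with 1 library left out, and the cause was not tested. With a replicate block there were 65, and with the crossed pairing, chosen after seeing the data, 7. The replicate block called 11 list genes, against 0 without it, IGFBP3 among them (limma adjusted p 0.00601). Leaving out 1 library called 0 to 4 list genes. The median of the relatives, -1.12, ranged over -1.40 to -0.77 with 1 library left out. Depth was estimated only as a ratio between libraries, so no counting interval is given.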
